A study of Mus musculus with 7 samples.

Results

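Reads of 10 transcription regulators of adipogenesis were compared between C3H10T1/2 cells exposed to purmorphamine and cells given vehicle. The genes were taken from the table of gene counts by symbol, and all 10 were found among its 18468 genes: Cebpa, Cebpb, Cebpd and Pparg (C/EBP and PPAR genes), Zfp423, Ebf1, Ebf2 and Prdm16 (early commitment factors), and Gata2 and Gata6 (GATA factors, of which Gata2 is the known repressor of adipocyte formation). C3H10T1/2 is a single established mouse line of mesenchymal origin that can form osteoblasts or adipocytes. The cells were kept without serum for 12 h and then exposed for 48 h, either to 2 μM purmorphamine, an agonist of the Hedgehog pathway protein Smo (4 libraries, replicates 5 to 8), or to 0.02% DMSO (3 libraries, replicates 2 to 4). Total RNA was sequenced. No adipogenic cocktail is named in the labels for either group.

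In adipogenesis, C/EBPβ and C/EBPδ are the early members of a cascade, and they activate the genes for PPARγ and C/EBPα, which then maintain each other and switch on the genes of the fat cell. Zfp423 and the Ebf factors mark cells committed to the adipocyte lineage, with Ebf2 and Prdm16 known for the brown and beige program. Gata2 is known to hold preadipocytes back by binding C/EBP proteins and the Pparg promoter, and Hedgehog signaling is known to restrain adipocyte formation.

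The libraries held 14337225 to 14342154 reads, since the authors had resampled them to nearly equal size. TMM scaling factors were 0.978 to 0.986 with DMSO and 1.01 to 1.02 with purmorphamine. The Hedgehog target genes Gli1 and Ptch1 served as the check of treatment. Gli1 had 7 to 12 reads in the DMSO libraries and 2522 to 3171 with purmorphamine, and Ptch1 had 504 to 532 and 10296 to 11451. All 8 mesenchymal marker genes were present, with summed reads of 268890 to 289217 with DMSO and 239384 to 259539 with purmorphamine. Single markers differed in direction within this sum: Vim had 79220 to 81440 reads with DMSO and 41359 to 43378 with purmorphamine, Pdgfra 10552 to 11060 and 18354 to 19275, and Thy1 1060 to 1182 and 1756 to 2024. Of 6 genes of mature adipocytes 1 had a row, Adipoq, with 10 to 19 reads and 4 to 8 reads. Of 8 blood cell markers 4 had a row, their summed reads were 13 to 16 and 10 to 22, and Ptprc, Itgam and Cd79a had 3 reads or fewer in every library. Summed reads of 6 endothelial markers were 781 to 821 with DMSO and 1898 to 2154 with purmorphamine, almost all of them Tek, whereas Emcn and Tie1 had 3 reads or fewer in every library. Those of the 3 of 6 epithelial markers with a row were 14 to 23 and 111 to 136. Almost all of these reads were Cdh1, whereas Krt8 and Krt14 had 3 reads or fewer in every library. The part of these marker genes in the results below was not tested.

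Of the 10 regulators, 9 had enough reads to be tested, and 7 changed. Cebpa, Cebpd, Pparg, Ebf2 and Gata6 fell, Ebf1 and Gata2 rose, and Cebpb and Zfp423 were not called. Prdm16 had too few reads for the test. A change was called at an adjusted p under 0.2 (quasi-likelihood test of edgeR, Benjamini-Hochberg, over the 12388 genes with enough reads). At this threshold 31.1% of all tested genes were called lower and 31.4% higher, so that 5 of 9 lower and 2 of 9 higher have to be read against a wide response of the transcriptome. The purmorphamine and DMSO libraries did not overlap for 7 of the 9 regulators, as for 49.5% of all tested genes. The median log2 fold change was -0.25 over the 9 regulators and 0.0038 over all tested genes, and the median size of the change, whatever its sign, was 0.36 and 0.20. A change that was both called and at least 1.5-fold was seen for 2 of the regulators, Cebpd and Ebf2, and for 15.4% of all tested genes. Each direction given here for the 7 genes that changed was the same with other scaling, other filters and other tests.

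**Figure D1:**
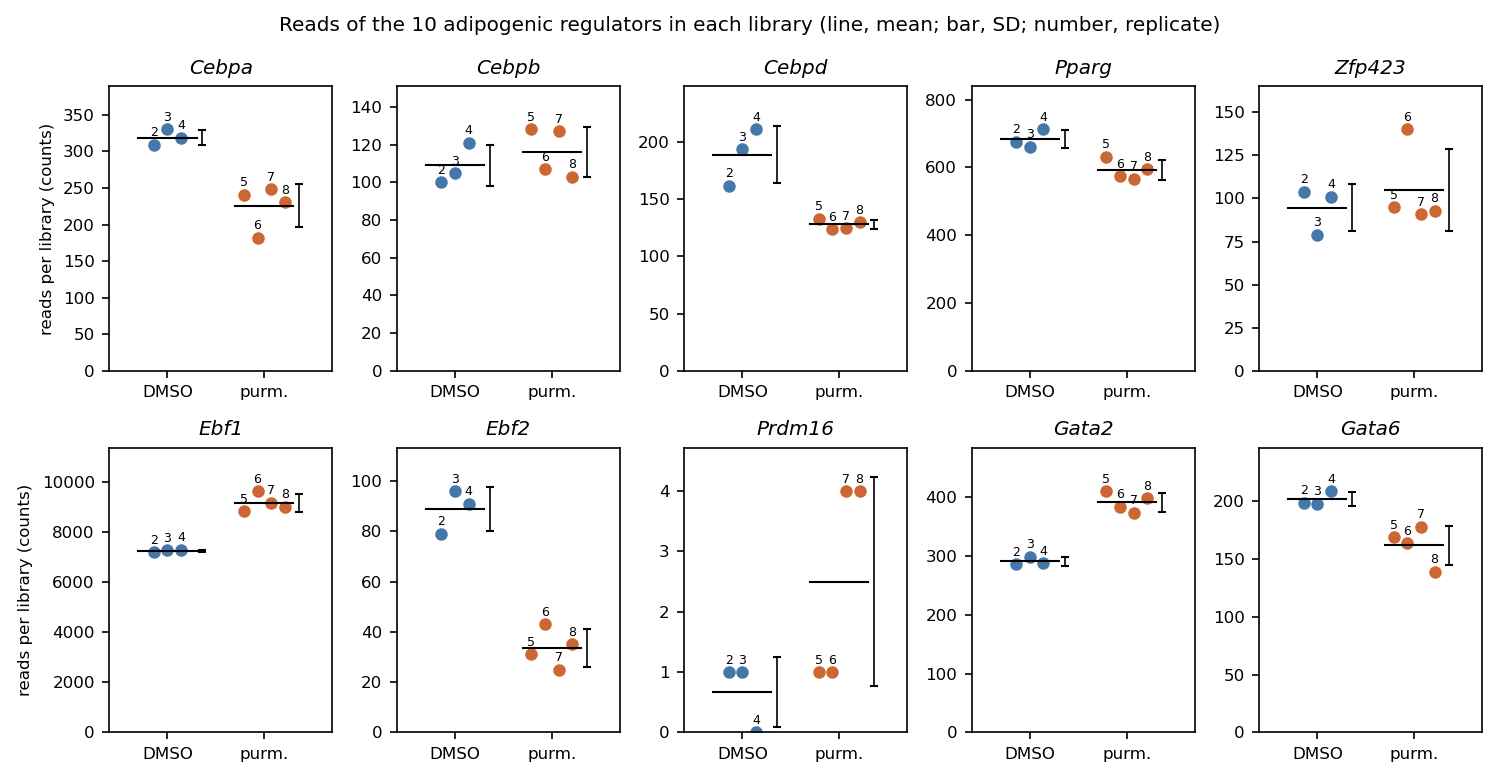
Reads per library (counts, vertical axis from 0) of the 10 regulators in the 3 DMSO and 4 purmorphamine libraries, with each point 1 library numbered by its replicate, the line the mean and the bar the SD. For 7 genes every purmorphamine library lies on 1 side of every DMSO library, whereas Cebpb, Zfp423 and Prdm16 overlap, and 1 Zfp423 library, replicate 6 at 140 reads, stands above the other 3 of its group.

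The C/EBP and PPAR genes did not move as a block: 3 of 4 fell and Cebpb was not called. Cebpa encodes C/EBPα, which drives the late, terminal step of the cascade. It had 309, 330 and 319 reads with DMSO and 241, 182, 248 and 231 with purmorphamine. The highest purmorphamine library was well below the lowest DMSO library, and replicate 6 was the lowest of all. The ratio of the mean deposited reads, which like every ratio of means here is without TMM scaling, was 0.706, whereas log2 fold changes are from the fit with TMM scaling, and the 95% interval of the log2 fold change ran from -0.75 to -0.34. Cebpd encodes C/EBPδ, an early factor, and had 162, 194 and 211 reads with DMSO and 133, 124, 125 and 130 with purmorphamine. The SD of its reads was 24.9 with DMSO and 4.24 with purmorphamine, a difference in spread that was not tested. The groups did not overlap. The log2 fold change of Cebpd was -0.61 (95% interval -0.83 to -0.38, adjusted p = 0.000158 from edgeR), against -0.55 for Cebpa (adjusted p = 0.00018 from edgeR). The RNA was from bulk cultures, so fewer cells with a transcript and less of it per cell cannot be told apart for these or any other genes below.

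Pparg encodes PPARγ, the nuclear receptor without which no adipocyte forms. Its reads were 676, 661 and 712 with DMSO and 632, 574, 567 and 595 with purmorphamine. The groups did not overlap, and replicate 5 of purmorphamine lay nearest to the DMSO libraries. Pparg had the smallest change of the 5 genes that fell, a log2 fold change of -0.25 (95% interval -0.38 to -0.13, adjusted p = 0.00225 from edgeR). Cebpb encodes C/EBPβ, which starts the cascade together with C/EBPδ. It had 100, 105 and 121 reads with DMSO and 128, 107, 127 and 103 with purmorphamine, so the groups overlapped across most of their range. The fold change of Cebpb had a 95% interval of 0.864 to 1.24 (adjusted p = 0.771 from edgeR), which leaves room for a change of that size in either direction. For Cebpa, Cebpd and Pparg, an exact permutation test (two-sided) gave p = 0.0286, the smallest value that 3 libraries against 4 can give, and for Cebpb it gave p = 0.743.

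The balance of the C/EBP genes within each library was also compared, as the log2 of the ratio of reads with 1 added to each count. The log2 ratio of Cebpb to Cebpa was -1.62, -1.64 and -1.39 in the DMSO libraries and -0.91, -0.76, -0.96 and -1.16 in the purmorphamine libraries. It rose by 0.60, a 1.52-fold shift toward Cebpb, with no overlap (exact permutation test, two-sided, p = 0.0286, adjusted over the 6 ratios tested 0.0429). The ranges of Cebpb and Cebpa reads keep the groups apart whichever libraries are paired. This separation and its p were thus fixed by the single genes and add no further evidence. The log2 ratio of Cebpb to Cebpd was -0.69, -0.88 and -0.80 with DMSO and -0.05, -0.21, 0.02 and -0.33 with purmorphamine. It rose by 0.65, or 1.56-fold, again with no overlap (exact permutation test, p = 0.0286, adjusted 0.0429). Here too the ranges of the single genes fixed the separation and its p, which add no further evidence. Cebpb made up 17.6% ± 0.95 (SD, n = 3) of the reads of the 3 C/EBP genes with DMSO and 24.8% ± 1.72 (SD, n = 4) with purmorphamine.

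The promoter sequences of these genes are shown for 2 genes that fell and for Cebpb, which was not called. Each is the 250 bases before a transcript start, 5′ to 3′ on the strand of the gene, from RefSeq in GRCm38.p6. Both strands of each stretch were searched for 4 short motifs: GACCACCCA, bound by Gli factors, TTGCNNAA for C/EBP, CCCNNGGGA for Ebf and AGATAA for GATA factors. Capitals mark a match, and none of the 4 motifs was found in the Cebpa stretch. The Pparg stretch belongs to the most downstream of the 3 starts listed, and the other 2 had no match. The stretch of Cebpa lies at chr7:35119043-35119292, that of Pparg at chr6:115421816-115422065 and that of Cebpb at chr2:167688665-167688914, all on the plus strand.
Cebpa: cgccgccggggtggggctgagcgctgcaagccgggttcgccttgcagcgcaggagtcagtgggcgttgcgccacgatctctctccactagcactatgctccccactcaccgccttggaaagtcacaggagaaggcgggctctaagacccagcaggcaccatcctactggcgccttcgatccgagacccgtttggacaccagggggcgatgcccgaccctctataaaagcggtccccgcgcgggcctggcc
Pparg: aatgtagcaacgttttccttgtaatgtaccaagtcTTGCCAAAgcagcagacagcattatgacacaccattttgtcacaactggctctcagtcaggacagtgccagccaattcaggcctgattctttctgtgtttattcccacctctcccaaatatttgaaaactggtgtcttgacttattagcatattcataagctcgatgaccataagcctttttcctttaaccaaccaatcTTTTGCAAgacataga
Cebpb: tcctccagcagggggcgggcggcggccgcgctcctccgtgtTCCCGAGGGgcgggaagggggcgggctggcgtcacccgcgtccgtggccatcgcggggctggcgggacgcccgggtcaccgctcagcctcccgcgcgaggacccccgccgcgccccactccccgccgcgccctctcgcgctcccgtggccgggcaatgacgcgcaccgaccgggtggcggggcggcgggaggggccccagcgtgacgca

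The Pparg stretch had 2 C/EBP matches, at -215 to -208 and -16 to -9 counted from the start, and the Cebpb stretch had 1 Ebf match at -209 to -201. The same search over all 32851 stretches of this length found the C/EBP motif in 9.56%, the Ebf motif in 5.60%, the GATA motif in 9.99% and the Gli motif in 0.225%. The 3 stretches also differed in base composition: G and C made up 40.8% of the Pparg stretch, 66.4% of that of Cebpa and 81.6% of that of Cebpb, against a median of 52.4% over all stretches. Of the other stretches of the regulators, the first of the 2 starts of Zfp423 had 1 C/EBP match. None of the 12 stretches searched, from 7 of the 10 genes, held the Gli motif. Cebpd, Ebf2 and Gata6 were not searched. A match of letters is not a binding site shown in these cells.

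**Figure D2:**
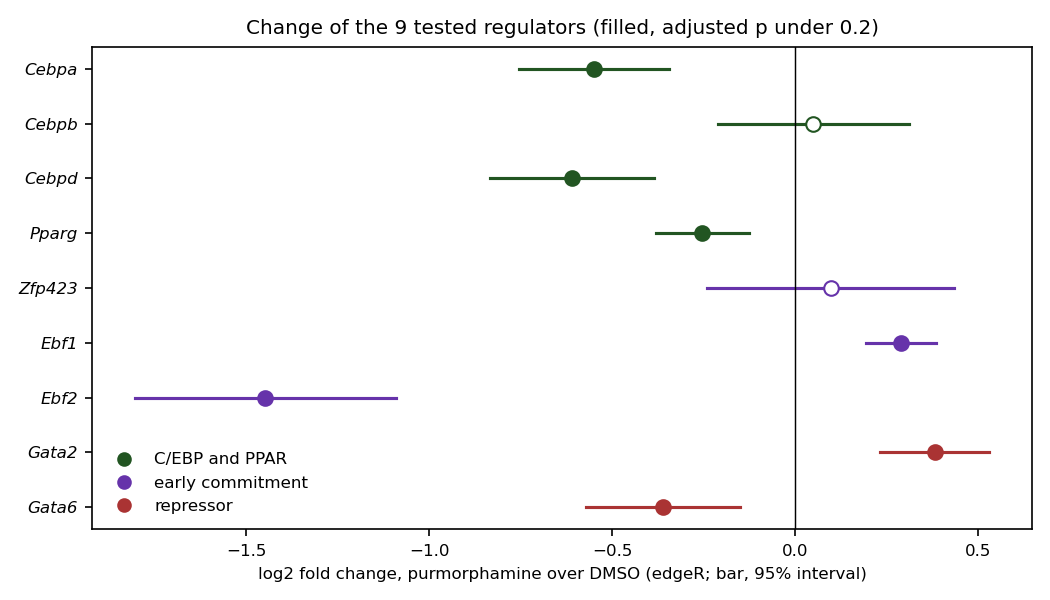
The log2 fold change of purmorphamine over DMSO (horizontal axis, edgeR) for the 9 regulators tested, with bars for the 95% interval, colors for the role and filled points for an adjusted p under 0.2. Ebf2 lies farthest from 0 at -1.45, the other genes called lower lie between -0.61 and -0.25, Ebf1 and Gata2 lie at 0.29 and 0.38, and the bars of Cebpb and Zfp423 cross 0.

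The early commitment factors divided: Ebf1 rose, Ebf2 fell, Zfp423 was not called, and Prdm16 was barely detected. Ebf1 encodes early B cell factor 1, which also acts in B cells and can activate Pparg and Cebpa. It had 7196, 7263 and 7281 reads with DMSO and 8815, 9628, 9162 and 9008 with purmorphamine. The DMSO libraries were nearly equal, and all 4 purmorphamine libraries lay far above them. The mean deposited reads differed 1.26-fold, and the log2 fold change with TMM scaling was 0.29 (standard error 0.045, 95% interval 0.19 to 0.39, adjusted p = 4.8e-05 from edgeR). Its close relative Ebf2, which marks brown and beige precursors, went the other way and changed most among the regulators.

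Ebf2 had 79, 96 and 91 reads with DMSO and 31, 43, 25 and 35 with purmorphamine. Every purmorphamine library had fewer reads than any DMSO library, and replicate 6 had the most of its group. The ratio of the mean deposited reads was 0.378, and with TMM scaling Ebf2 had a log2 fold change of -1.45 (standard error 0.168, 95% interval -1.80 to -1.09, adjusted p = 2e-06 from edgeR). The log2 ratio of Ebf2 to Ebf1 within a library was -6.49, -6.23 and -6.31 with DMSO and -8.11, -7.77, -8.46 and -7.97 with purmorphamine. It fell by 1.74, to 0.30 of the ratio with DMSO, with no overlap (exact permutation test, two-sided, p = 0.0286, adjusted over 6 ratios 0.0429). Ebf2 was lower and Ebf1 higher in every purmorphamine library than in any DMSO library. The separation of the ratio and its p were thus fixed by the single genes and add no further evidence. Ebf1 made up 81.9% ± 0.541 (SD, n = 3) of the reads of Ebf1 to Ebf4 with DMSO and 86.0% ± 0.798 (SD, n = 4) with purmorphamine, whereas the share of Ebf2 was 1.0% ± 0.0941 and 0.314% ± 0.0651.

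Zfp423 encodes a zinc finger protein that commits mesenchymal cells to the preadipocyte state and supports Pparg. It had 104, 79 and 101 reads with DMSO and 95, 140, 91 and 93 with purmorphamine. The 2 groups overlapped, and the purmorphamine mean was pulled up by replicate 6. The log2 fold change of Zfp423 was 0.10 (95% interval -0.24 to 0.44, adjusted p = 0.647 from edgeR), and without replicate 6 it was -0.06. The fold change had a 95% interval of 0.847 to 1.35, so a shift as large as that of Ebf1 could not be told from none at this depth. Its homolog Zfp521, a factor that binds Ebf1 and opposes adipocyte commitment, was more abundant in reads and rose slightly, from 1882.67 ± 19.0 (SD, n = 3) to 2147 ± 42.8 (SD, n = 4), with a log2 fold change of 0.14 (adjusted p = 0.0126 from edgeR). The log2 ratio of Zfp423 to Zfp521 was -4.31 ± 0.204 (SD, n = 3) and -4.37 ± 0.296 (SD, n = 4), with overlap (exact permutation test, two-sided, p = 0.83).

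Prdm16 encodes a coregulator that sets the brown and beige fat identity. It had 1, 1 and 0 reads with DMSO and 1, 1, 4 and 4 with purmorphamine. The groups overlapped, and the count filter removed the gene before the test. The sums were 2 reads over the DMSO libraries, 0.667 per library with an exact Poisson 95% interval of 0.0807 to 2.41, and 10 reads over the purmorphamine libraries, 2.5 per library with an interval of 1.2 to 4.6, which cover counting error only. These intervals overlapped, which is not itself a test of a difference. The exact permutation test (two-sided) gave p = 0.286. A fit without the filter gave a log2 fold change of 1.69 (adjusted p = 0.226 from edgeR). No difference in Prdm16 was thus called at this depth.

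**Figure D3:**
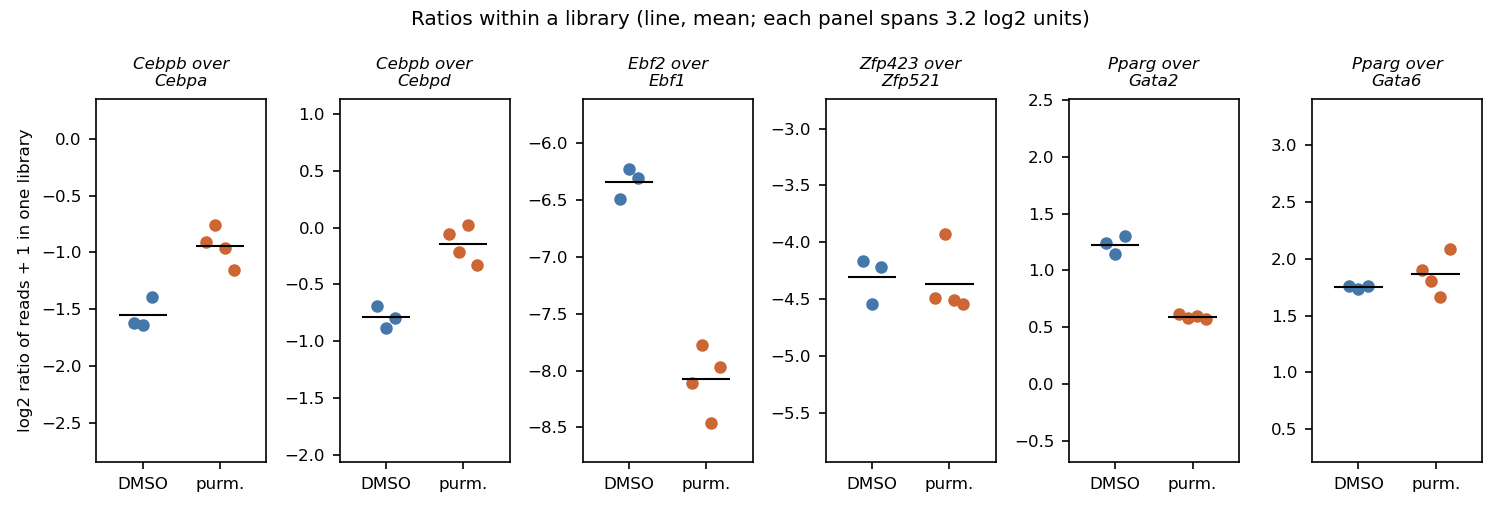
The log2 ratio of reads (1 added to each count) of 6 gene pairs within each library, DMSO and purmorphamine side by side, with each point 1 library, the line the mean and every panel spanning the same number of log2 units. The groups are apart for Cebpb over Cebpa, Cebpb over Cebpd, Ebf2 over Ebf1 and Pparg over Gata2, and they overlap for Zfp423 over Zfp521 and Pparg over Gata6.

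The 2 GATA factors moved in opposite directions. Gata2, the repressor of preadipocyte maturation, had 286, 299 and 288 reads with DMSO and 411, 384, 374 and 399 with purmorphamine. All 4 purmorphamine libraries were above all 3 DMSO libraries by a margin far larger than the spread within either group. The mean deposited reads of Gata2 had a ratio of 1.35, and with TMM scaling Gata2 rose by 0.38 on the log2 scale (standard error 0.0703, 95% interval 0.23 to 0.53, adjusted p = 0.000262 from edgeR). Gata2 also acts in endothelial and blood cells, and the endothelial marker Tek was higher with purmorphamine, at 1870 to 2124 reads against 770 to 816. Of the other endothelial markers, Cdh5 had 0 reads with DMSO and 21 to 26 with purmorphamine. Pecam1, Kdr, Emcn and Tie1 had 5 reads or fewer in every library. A link between Gata2 and these markers was not tested. Gata6, a factor better known from heart and endoderm, had 199, 198 and 209 reads with DMSO and 169, 164, 178 and 139 with purmorphamine. No library of the 2 groups overlapped, and replicate 8 was the lowest. The mean deposited reads of Gata6 had a ratio of 0.804, and with TMM scaling its log2 fold change was -0.36 (standard error 0.0991, 95% interval -0.57 to -0.15, adjusted p = 0.00663 from edgeR). The exact permutation test (two-sided) gave p = 0.0286 for Gata2, Gata6, Ebf1 and Ebf2 alike.

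The share of Gata2 in the reads of Gata2, Gata3, Gata4 and Gata6 was 46.3% ± 0.935 (SD, n = 3) with DMSO and 57.9% ± 2.52 (SD, n = 4) with purmorphamine, and that of Gata6 was 32.1% ± 1.0 and 24.0% ± 2.25. Pparg was also set against Gata2: the log2 ratio of Pparg to Gata2 was 1.24, 1.14 and 1.30 with DMSO and 0.62, 0.58, 0.60 and 0.58 with purmorphamine. It fell by 0.63, to 0.644 of the ratio with DMSO, with no overlap (exact permutation test, two-sided, p = 0.0286, adjusted over 6 ratios 0.0429). As with Ebf2 and Ebf1, this separation and its p were fixed by the single genes, since Pparg was lower and Gata2 higher in every purmorphamine library. The SD of the Pparg to Gata2 log2 ratio was 0.0205 with purmorphamine and 0.081 with DMSO, and a difference in spread was not tested. The log2 ratio of Pparg to Gata6, in contrast, was 1.75 ± 0.0159 (SD, n = 3) and 1.86 ± 0.178 (SD, n = 4), and the groups overlapped (exact permutation test, two-sided, p = 0.40).

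The start region of Gata2 is shown beside those of the C/EBP genes because it is 1 of the 2 regulators that rose. The stretch is the 250 bases before the more downstream of its 2 starts, chr6:88198414-88198663 on the plus strand in GRCm38.p6, from RefSeq, with an Ebf match in capitals at -208 to -200. The other start of Gata2 had none of the 4 motifs, and neither did the 2 starts of Ebf1.
Gata2: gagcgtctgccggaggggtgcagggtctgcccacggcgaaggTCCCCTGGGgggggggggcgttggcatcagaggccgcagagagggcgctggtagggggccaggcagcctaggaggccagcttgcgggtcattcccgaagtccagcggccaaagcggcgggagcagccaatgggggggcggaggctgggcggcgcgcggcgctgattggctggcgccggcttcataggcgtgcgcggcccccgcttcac

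To compare the regulators with each other, reads were scaled by TMM and divided by the merged exon length of the gene in kilobases (GENCODE M21). On this scale Ebf1 was by far the most abundant, at 757 ± 5.62 with DMSO (SD, n = 3) and 925 ± 33.7 with purmorphamine (SD, n = 4). Pparg came next with 236 and 198, ahead of Cebpa with 123 and 84.4 and Cebpb with 73.6 and 76.3. These were followed by Gata2 with 54.9 and 71.6, Cebpd with 51.4 and 33.7, Gata6 with 31.6 and 24.6, and Zfp423 with 17.2 and 18.4. Ebf2 was low, at 13.0 and 4.76, and Prdm16 stood at 0.0727 and 0.265. The order of the means was the same in both groups, but not every neighbor was apart: Gata2 and Cebpd overlapped with DMSO, and Cebpa and Cebpb, Cebpb and Gata2, and Gata6 and Zfp423 overlapped with purmorphamine. The places of Cebpa, Cebpb and Cebpd rest on their lengths, and another length was tried for these genes only. With the span of the counts table, which is shorter for Cebpd, it had 122 reads per kilobase with DMSO, just above the 107 of Cebpa. Cebpb then had 58.2 with DMSO, above the 54.9 of Gata2, but 60.2 with purmorphamine, below the 71.6 of Gata2. With that length the order was not the same in both groups.

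**Figure D4:**
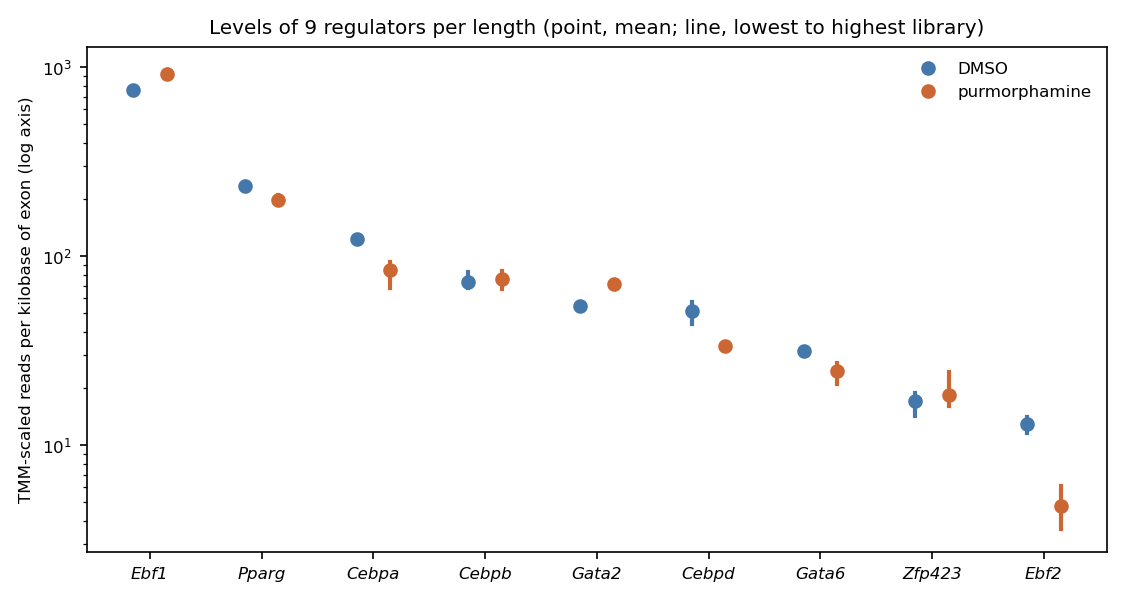
Levels of 9 regulators as TMM-scaled reads per kilobase of merged exon (vertical log axis), DMSO beside purmorphamine, with the point the mean and the line the lowest to the highest library; Prdm16, with a library at 0, is not drawn. Ebf1 stands highest in both groups at 757 and 925, Ebf2 lowest at 13.0 and 4.76.

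Other genes of the program were counted in 7 further lists, and each count is to be read against the 31.4% of all tested genes called higher and the 31.1% called lower. The lists were not tested as sets. Of the relatives of the regulators 8 of 13 were tested, of which 1 rose and 5 fell, with a median log2 fold change of -0.14. The gene that rose was Zfp521, and Cebpg, a C/EBP protein that lacks an activation domain, fell by 0.27 on the log2 scale (adjusted p = 0.000727 from edgeR). Ppard, which encodes the widely expressed PPARδ, had -0.21 (adjusted p = 0.188 from edgeR), close to the threshold and with overlapping groups. The count of 6 called relatives was 3 without TMM scaling, at an adjusted p under 0.05, or without purmorphamine replicate 8.

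Among the partners and cofactors of the regulators 18 of 19 were tested, of which 5 rose and 7 fell, with a median log2 fold change of 0.04. Rxra, whose product pairs with PPARγ on DNA, rose by 0.45 on the log2 scale (adjusted p = 8.25e-06 from edgeR), and Ncoa3, a nuclear receptor coactivator, rose by 0.54 (adjusted p = 7.17e-06 from edgeR). Zfpm2, which encodes a GATA cofactor, fell by 0.32, and Ehmt1, a methyltransferase that works with Prdm16, fell by 0.35 (adjusted p = 0.000785 and 2.11e-05 from edgeR). Ppargc1a, the coactivator of PPARγ known from brown fat and chosen here after its values were seen, had 17, 26 and 20 reads with DMSO and 2, 2, 3 and 2 with purmorphamine (adjusted p = 1.85e-06 from edgeR). Its groups were far apart, but so few reads with purmorphamine give no reliable fold change.

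Of 19 other factors that promote adipogenesis 16 were tested, of which 5 rose and 4 fell, with a median of -0.01. Klf4, an early inducer of Cebpb, rose by 2.86 on the log2 scale from 654 ± 3.51 (SD, n = 3) to 4902.75 ± 98.5 reads (SD, n = 4), although Cebpb itself was not called. Nr3c1, the glucocorticoid receptor, rose by 0.96, whereas Klf15, which acts on Pparg, fell by 1.27, and Tcf7l1 fell by 0.44. Of 23 other factors that restrain adipogenesis 22 were tested, of which 11 rose and 8 fell, with a median of 0.10. Twist2 and Hes1 rose by 2.11 and 1.72 on the log2 scale, whereas Sox9 and Dlk1, both known to hold preadipocytes undifferentiated, fell by 1.45 and 1.10. For each of these 8 genes the groups did not overlap, and the adjusted p from edgeR was at most 4.86e-05.

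Of 26 genes that adipocytes use 14 had enough reads for the test, of which 3 rose and 9 fell, with a median of -0.38. Dgat2, for the last step of triglyceride synthesis, fell by 1.6 on the log2 scale, and Angptl4, a PPAR target that inhibits lipoprotein lipase, fell by 1.31. Fabp4, a fatty acid binding protein chosen here after its values were seen, fell from 43.3 ± 5.51 (SD, n = 3) to 17.0 ± 2.94 reads (SD, n = 4), a log2 fold change of -1.39. Fabp5 and Plin4 rose, by 0.65 and 0.48. Adjusted p from edgeR was at most 0.000796 for these 5 genes. Of 12 brown and beige adipocyte genes only 2 had enough reads, and Tbx1 rose by 0.55 (adjusted p = 0.000374 from edgeR). Of 11 adipocyte progenitor genes 10 were tested, 6 rose and 2 fell, with a median of 0.53. Pi16, a marker of early adventitial progenitors, rose from 13.0 ± 4.36 (SD, n = 3) to 173 ± 47.4 reads (SD, n = 4), a log2 fold change of 3.67, and Ly6a rose by 1.03. Cd24a, another progenitor marker, fell by 2.00, and Lum fell by 0.26 with overlapping groups (adjusted p = 0.023 from edgeR).

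**Figure D5:**
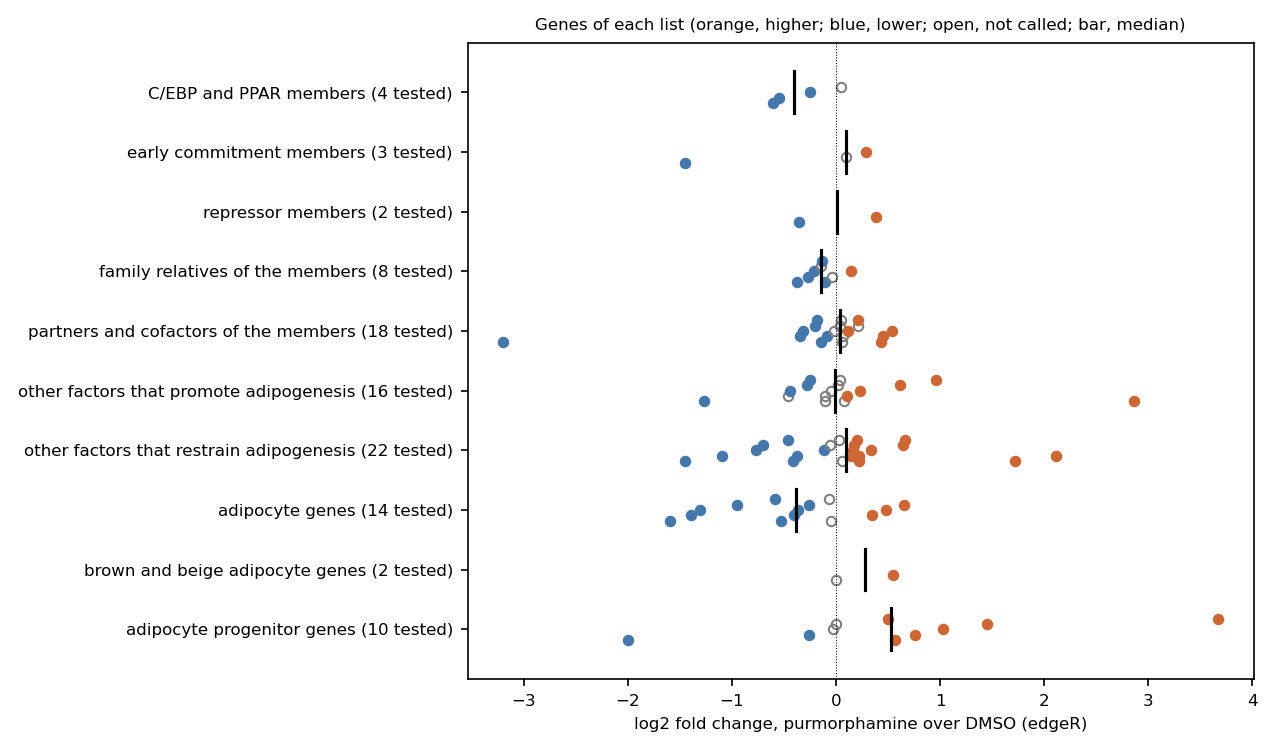
The log2 fold change of purmorphamine over DMSO (horizontal axis, edgeR) for each tested gene of the 3 role groups of regulators and the 7 other lists, with orange for higher, blue for lower, open points for not called and a bar for the median. Medians run from -0.40 for the C/EBP and PPAR genes and -0.38 for the adipocyte genes to 0.53 for the progenitor genes, and the lowest point, Ppargc1a, rests on 2 or 3 reads per purmorphamine library.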

How the data were processed

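RNA of C3H10T1/2 cells was sequenced in 7 libraries. The authors resampled the reads to equal depth with their own normalization tool, counted sense-strand reads per gene, and deposited the resulting whole-number counts. The submitters' processing notes name STAR 2.5.3a and mm9, and the annotation is not given in the sources used here. Nothing states that the libraries came from separate cultures or days, so p-values measure only the spread between these libraries. Depth was 14337225 to 14342154 reads per library.

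Groups followed the sample titles. Counts were tested with edgeR 4.0.16 in R 4.3.3 (TMM factors, default filter with a minimum of 10 counts and a total of 15, quasi-likelihood test without covariates, Benjamini-Hochberg adjustment, threshold 0.2, the FDR of the study). The study itself used limma-voom, which is an alternative here. Standard errors and 95% intervals came from the same fit. Exact permutation tests ran over the 35 assignments of the libraries. Within-library ratios had 1 added to each count. Lengths and promoters are in GRCm38, from GENCODE M21 and RefSeq, and no coordinates of the counts table are given. The steps were tested on simulated counts.

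The regulators and gene lists were chosen with earlier results of these data known. Named from the other lists were at most the 2 highest and 2 lowest changes among called genes that averaged 50 reads or more, and genes in a ratio. Genes of the marker lists, Gli1 and Ptch1, and relatives that only enter the total of a family share are named beside these, and any other gene is marked as chosen after its values were seen. Alternatives were no TMM, DESeq2 1.42.0, limma-voom 3.58.1, no filter, 10 counts in every library, a threshold of 0.05, an added count of 0.5 and each library left out. Length from the counts table and changes relative to the median gene were added after seeing the data.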

Additional observations from a re-analysis of the deposited data

Results flagged for a closer look

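Zfp423 had 1 purmorphamine library far from the other 3: replicate 6 held 140 reads against 91 to 95, and after TMM scaling its gap to the nearest library was 0.931 of the range of the group, above Dixon's 95% critical value. Chance marks about 1 in 20 groups in this way, and 10 genes were examined in the purmorphamine group. Replicate 6 was also the lowest of its group for Cebpa (182 reads) and the highest for Ebf1 (9628 reads) and Ebf2 (43 reads), with gaps below that value. Outside the regulators, replicate 6 was highest for Pi16 (242 reads against 136 to 162), Angptl4 (821 against 538 to 590) and Lum (707 against 528 to 532). These genes were picked after their values were seen, and the other listed genes were not examined in this way. The cause was not tested.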

How the results depend on the processing

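The 7 regulators that changed kept their direction and stayed under an adjusted p of 0.2 in all 12 alternative fits, with a highest adjusted p of 0.0343, for Gata6 without DMSO replicate 4. Of 117 comparisons of single regulators with an alternative 114 gave the same outcome, as did 337 of all 352 comparisons. These include the threshold of 0.05, which uses the main fit again. Leaving out 1 library moved the log2 fold change of Cebpb between -0.0022 (without DMSO replicate 2) and 0.14, and that of Zfp423 between -0.062 (without purmorphamine replicate 6; -0.02 without DMSO replicate 3) and 0.175. The log2 difference of the Zfp423 to Zfp521 ratio ran from -0.21 to 0.01, with a change of sign without DMSO replicate 2 (0.014) and without purmorphamine replicate 8 (0.0019). The count of called relatives was 3 to 5 with 1 library left out and 3 without TMM or at an adjusted p under 0.05, against 6. Of the brown and beige genes 2 were called without a filter, against 1. With no filter Prdm16 had an adjusted p of 0.226 from edgeR. The median log2 fold change of all genes was 0.05 without TMM, and the share of calls that were higher was 59.5% against 50.2%. For these results the cause was not tested. No paired analysis was possible because DMSO and purmorphamine libraries carry different numbers. Leave-one-out values of the ratios have no test. Genes with few reads, Prdm16 above all, are limited by depth.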
